A study of Mus musculus with 9 samples.

Results

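A set of 10 growth factor receptor and ligand genes known as drivers or dependencies of midline glioma was followed through 9 libraries. They are the PDGF receptors Pdgfra and Pdgfrb, the PDGF ligands Pdgfa, Pdgfb and Pdgfc, the receptor tyrosine kinases Egfr, Met, Fgfr1 and Axl, and the activin receptor kinase Acvr1. The genes were picked by name from the 55401 genes in the deposited tables, and all 10 passed the filter on low counts that left 15659 genes for testing. The cells were NP53, a mouse diffuse midline glioma (also called diffuse intrinsic pontine glioma) line grown in serum. Gcontrol is labelled wild type, and the derivatives G1C7 and G2C9 carry the label of a TIM-3 knockout, each with 3 libraries of polyadenylated RNA. The series asks what loss of TIM-3, the product of Havcr2, does to tumour formation by this line. The labels do not say how the knockout was made, whether a derivative is 1 clone, which alleles made the parent line, or whether the libraries of a group came from separate cultures, so p-values speak only of how these libraries vary, which may be technical.

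Receptor tyrosine kinases sit in the cell membrane and dimerise when a ligand binds outside the cell. The paired kinase domains then phosphorylate each other and recruit adaptor proteins that drive the RAS-MAPK and PI3K-AKT pathways. PDGFRA is the receptor of oligodendrocyte precursor cells, the lineage with which midline glioma is most often linked, and it is amplified or mutated in part of these tumours. ACVR1 is a BMP type I receptor serine/threonine kinase, and activating ACVR1 mutations are a hallmark of a subset of these tumours. RNA levels do not show receptor phosphorylation or mutation, and neither was measured.

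Each library held between 50110129 and 56035382 reads in genes, with each mate of a read pair counted by itself, so counting error is small for the 9 members with 331 reads or more in every library. Within groups, G1C7 replicate 2 and G2C9 replicate 3 stood apart. Set against their group mates, their counts gave a chi-square of 275 and 284 per degree of freedom in G1C7 and of 177 and 170 in G2C9, against 4.71 to 13.7 for all other pairs within a group. Havcr2 itself had 74, 58 and 60 reads in Gcontrol, 55, 6 and 66 in G1C7 and 39, 30 and 28 in G2C9. It was not called in either derivative (adjusted p = 0.586 and 0.448, edgeR), and a gene-level count does not check an edit that leaves the transcript in place. Markers did not give an oligodendrocyte lineage profile: Olig1 and Olig2 had 0 reads in all 9 libraries, which with a floor of 6 reads (3 read pairs) allows up to 0.122 CPM in a library, and Sox10 had 2, 0 and 2 reads in Gcontrol, G1C7 and G2C9. Cspg4 (NG2), the 1 abundant gene of the 7 on that list, had a mean of 43.6 CPM (counts scaled to library size with TMM factors) in Gcontrol, 1.30 in G1C7 and 4.27 in G2C9. In bulk RNA, fewer cells with a transcript and less of it per cell cannot be told apart. Vim was at 1816 ± 21.4 CPM, Sox2 at 69.5 ± 0.275 and Col1a1 at 2712 ± 138 in Gcontrol (SD, n = 3), while the astrocyte gene Gfap was at most 0.333 CPM in any library. In the same lists, the neural progenitor gene Nes was at 117 ± 7.85 CPM in Gcontrol (SD, n = 3). The fibroblast genes Col1a2, Col3a1 and Dcn had Gcontrol means of 1602, 650 and 788 CPM. The remaining genes of these 2 lists were near 0. Summed over the Gcontrol libraries, the neural progenitor genes Prom1 and Fabp7 had 4 and 26 reads, and the fibroblast genes Lum and Thy1 had 20 and 0. The label of a glioma line was therefore not matched by the transcription factors of the oligodendrocyte lineage.

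The promoters of Pdgfra, Met and Axl are shown: Pdgfra was the 1 member that passed the test against Gcontrol, and Met and Axl, which did not pass, had the same derivative libraries above and within the Gcontrol range. Each runs from 250 bases before to 50 bases after a RefSeq transcript start (GRCm38.p6), 5′ to 3′ on the gene's strand, at chr5:75152001-75152300 (+) for Pdgfra, chr6:17463707-17464006 (+) for Met and chr7:25788684-25788983 (-) for Axl. Capitals mark matches to an AP-1 motif (TGANTCA), a TEAD motif (GGAATG) or a GC box (GGGCGG), searched on both strands.
Pdgfra: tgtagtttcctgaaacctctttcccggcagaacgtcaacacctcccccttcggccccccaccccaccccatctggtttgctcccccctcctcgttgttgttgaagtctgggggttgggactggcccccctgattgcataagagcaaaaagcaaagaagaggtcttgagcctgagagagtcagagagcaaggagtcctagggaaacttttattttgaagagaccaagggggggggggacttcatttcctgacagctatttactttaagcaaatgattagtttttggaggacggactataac
Met: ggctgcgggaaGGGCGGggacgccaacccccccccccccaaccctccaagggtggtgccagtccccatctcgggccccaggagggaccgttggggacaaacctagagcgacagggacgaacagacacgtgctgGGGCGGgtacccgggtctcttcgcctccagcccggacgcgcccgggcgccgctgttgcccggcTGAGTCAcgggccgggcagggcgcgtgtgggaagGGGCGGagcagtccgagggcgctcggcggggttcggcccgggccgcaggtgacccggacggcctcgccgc
Axl: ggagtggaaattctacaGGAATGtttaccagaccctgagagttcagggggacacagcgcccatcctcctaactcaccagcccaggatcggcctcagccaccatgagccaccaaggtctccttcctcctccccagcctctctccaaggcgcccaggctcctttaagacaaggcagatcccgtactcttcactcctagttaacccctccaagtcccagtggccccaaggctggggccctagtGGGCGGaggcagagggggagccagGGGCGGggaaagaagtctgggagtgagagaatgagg
The Pdgfra window, at 51.0% GC, held none of the 3 motifs. The Met window, at 75.7% GC, held 1 AP-1 match and 3 GC boxes, and the Axl window, at 60.3% GC, held 1 TEAD match and 2 GC boxes. Among 32851 windows of the same length, 7.81% held the AP-1 motif, 14.7% the TEAD motif and 35.7% a GC box. Windows were found for 7 of the 10 genes, of which the AP-1 motif was found only at Met, the TEAD motif also at Pdgfc, and GC boxes also at Pdgfa, Egfr and Acvr1. These matches describe letters in a window and carry no measurement of binding.

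Compared per length of transcript (RPKM: TMM-scaled CPM per kilobase), Axl was the most abundant of the 10 genes in every group. Axl encodes a receptor of the TAM family, which binds GAS6. In Gcontrol its level was 117 ± 4.04 RPKM (SD, n = 3), higher than that of 97.6% of tested genes. Pdgfrb followed at 44.1 ± 2.6, Fgfr1 at 34.3 ± 1.67, Pdgfra at 24.8 ± 0.971, Pdgfa at 15.1 ± 0.942 and Met at 12.6 ± 0.197. Acvr1 at 8.65 ± 0.186 and Pdgfc at 8.34 ± 0.581 overlapped, and all other neighbours in this order were apart in Gcontrol. Egfr stood at 1.5 ± 0.160 RPKM and Pdgfb at 0.399 ± 0.0356, so counts over both annotated mouse genes were low. In both derivatives Axl, Pdgfrb, Fgfr1 and Pdgfra kept the 4 highest places in that order. More neighbours overlapped there. In G1C7 these were Pdgfrb with Fgfr1, Fgfr1 with Pdgfra, Acvr1 with Pdgfc, and Egfr with Pdgfb. In G2C9 they were Fgfr1 with Pdgfra, Met with Pdgfc, Pdgfc with Pdgfa, and Pdgfa with Acvr1.

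**Figure D1:**
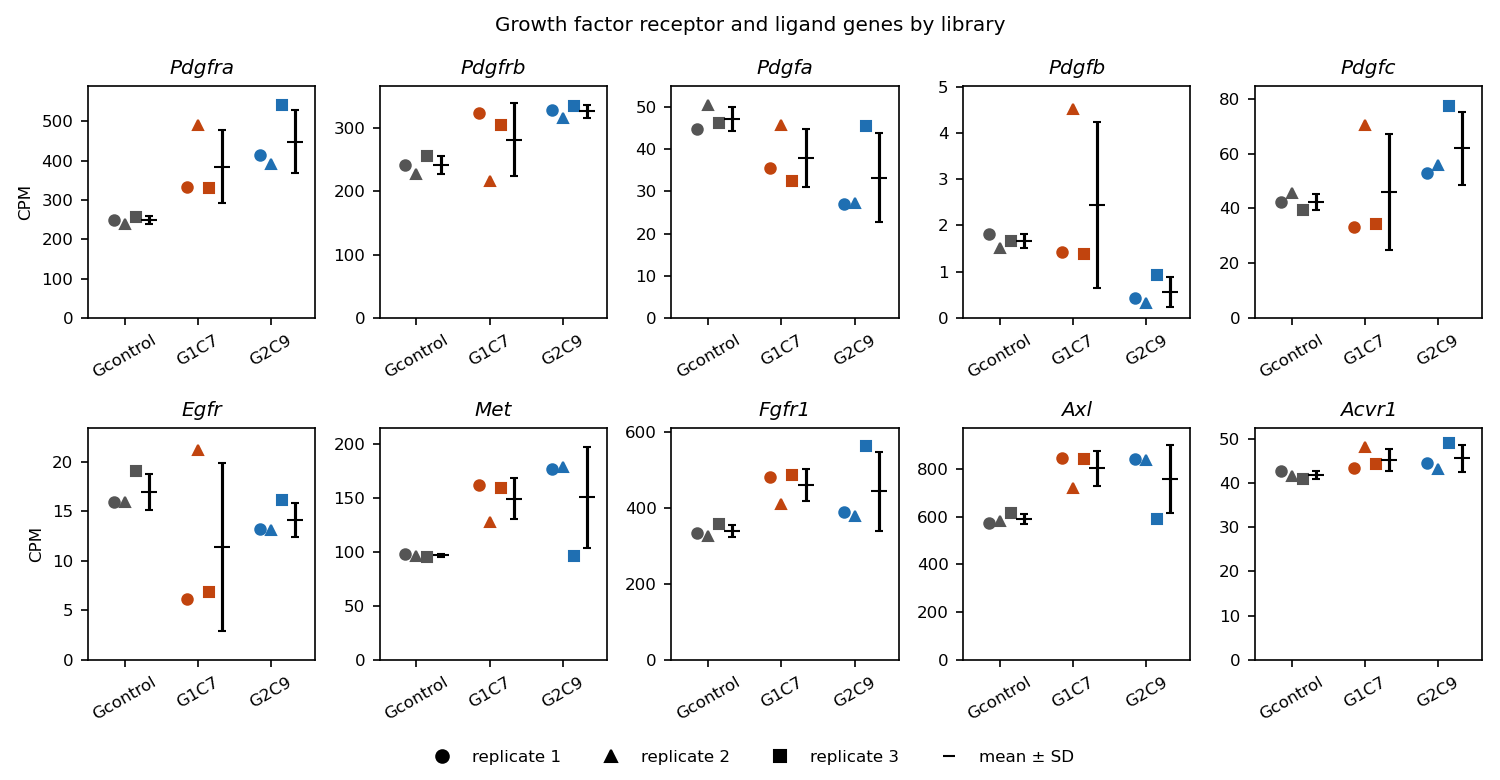
Level of each of the 10 genes in CPM (linear axes from 0), with 1 point per library (shape gives the replicate number) and the mean ± SD of 3 libraries beside it. Pdgfra lay between 238 and 257 CPM in Gcontrol and between 331 and 541 in the 6 derivative libraries, and G1C7 replicate 2 and G2C9 replicate 3 are the points that lie away from their group mates.

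Pdgfra was the 1 member that passed the test against Gcontrol, and it was higher in both derivatives. PDGFRA binds PDGF-AA and PDGF-CC and is the PDGF receptor of glial precursors. The gene (ENSMUSG00000029231.15, chr5:75152292-75198215, + strand) was read at 249, 238 and 257 CPM in Gcontrol, 332, 491 and 331 CPM in G1C7, and 414, 390.4 and 541 CPM in G2C9. Every derivative library was above every Gcontrol library. The fitted change was 1.55-fold in G1C7 (log2 0.63 ± 0.18 SE, adjusted p = 0.0427) and 1.81-fold in G2C9 (log2 0.85 ± 0.18 SE, adjusted p = 0.016). The 46 other tested genes that start within 5 Mb of Pdgfra had median log2 changes of 0.05 and 0.10. G1C7 and G2C9 did not differ detectably from each other (log2 -0.22, 95% interval -0.63 to 0.19, adjusted p = 0.674). The call was lost without any 1 of the 3 Gcontrol libraries, with adjusted p up to 0.14 in G1C7 and 0.0721 in G2C9 (both without Gcontrol replicate 2), while the fitted change stayed between 0.42 and 0.73 in G1C7 and between 0.70 and 0.94 in G2C9. It was also lost in G1C7 without G2C9 replicate 1 or 2 (adjusted p = 0.0628 and 0.0551) and in a fit of only G1C7 and Gcontrol (adjusted p = 0.0531).

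The chromosomal neighbours of Pdgfra that also encode receptor tyrosine kinases gave no comparable signal: Kit had 0 reads in all 9 libraries, and Kdr had 45, 42 and 28 reads in Gcontrol, G1C7 and G2C9. By the rule for genes of like pattern, Dlx4, Dact1 and Ror2 followed Pdgfra most closely across the 9 libraries, with Pearson r of 0.9905, 0.9888 and 0.9888 in log2 CPM as a description. Among 10987 candidate genes 102 had an r over 0.95, and the 9 points share their 3 groups and the 2 libraries that stood apart. Dlx4 encodes a homeobox protein, Dact1 a Wnt pathway regulator and Ror2 a Wnt receptor.

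Pdgfrb, the receptor of pericytes and fibroblasts that binds PDGF-BB (ENSMUSG00000024620.11), did not pass in either derivative. It was read at 241, 228 and 256 CPM in Gcontrol, 324, 216 and 305 in G1C7, and 328, 316 and 335 in G2C9. All 3 G2C9 libraries and G1C7 replicates 1 and 3 were above Gcontrol, and G1C7 replicate 2 was below it. The fitted changes were log2 0.22 (adjusted p = 0.336) in G1C7 and 0.43 (adjusted p = 0.084) in G2C9. Without G1C7 replicate 2 Pdgfrb passed in both, at 0.38 (adjusted p = 0.00846) and 0.43 (adjusted p = 0.00283). Calls rose over all genes in that fit: 4127 and 4098 of 15659 tested genes in G1C7 and G2C9, against 2740 and 2109 with all libraries. The ratio of Pdgfra to Pdgfrb per length was 0.549 to 0.571 in the Gcontrol libraries. It was 0.561 and 0.593 in G1C7 replicates 1 and 3, 1.244 in G1C7 replicate 2, and 0.676 to 0.882 in G2C9.

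The PDGF ligand genes went different ways, and none passed the test. Pdgfa, whose product pairs as PDGF-AA and binds PDGFRA (ENSMUSG00000025856.15, chr5:138976014-138997370, - strand), was read at 44.8, 50.4 and 46.2 CPM in Gcontrol. The values were 35.6, 45.6 and 32.4 CPM in G1C7 and 27.0, 27.3 and 45.5 CPM in G2C9. In each derivative 2 libraries were below all Gcontrol libraries and the library that stood apart was within their range. The fitted changes were log2 -0.31 (adjusted p = 0.356) and -0.50 (adjusted p = 0.168). Without G2C9 replicate 3 the change of Pdgfa in G2C9 was -0.80 (adjusted p = 0.013). Over all tested genes that fit called 3359 in G1C7 and 2346 in G2C9, against 2740 and 2109 with all libraries.

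Pdgfb, which encodes the ligand of both PDGF receptors (ENSMUSG00000000489.7, chr15:79995874-80014977, - strand), was a low gene. It had 98, 82 and 94 reads in Gcontrol, 76, 248 and 76 in G1C7, and 22, 16 and 48 in G2C9. G2C9 lay below Gcontrol in 3 of 3 libraries, at 0.567 ± 0.326 against 1.66 ± 0.149 CPM (SD, n = 3), with a fitted change of log2 -1.55 (adjusted p = 0.106; 0.0152 without G1C7 replicate 2). In G1C7, replicates 1 and 3 were just below Gcontrol and replicate 2 was at 4.52 CPM, which left a fitted change of 0.56 (adjusted p = 0.518). Pdgfb was also the 1 member whose G1C7 and G2C9 libraries did not overlap, at a 4.29-fold difference (log2 2.10, adjusted p = 0.092). Counts over the gene do not separate the endogenous transcript from any introduced Pdgfb copy, and the labels name none.

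Pdgfc (PDGF-CC, a ligand of PDGFRA that needs cleavage; ENSMUSG00000028019.9, chr3:81036416-81214040, + strand) was read at 42.3, 45.5 and 39.6 CPM in Gcontrol. It was at 33.3, 70.6 and 34.2 CPM in G1C7 and at 52.8, 55.7 and 77.3 CPM in G2C9. G2C9 was above Gcontrol in 3 of 3 libraries (log2 0.55, adjusted p = 0.262), while G1C7 had 2 libraries below and 1 above (log2 0.12, adjusted p = 0.816). Without G1C7 replicate 2 the G1C7 value was -0.33 (adjusted p = 0.164), and Pdgfc passed in G2C9 (0.55, adjusted p = 0.0224). Pdgfd, a further PDGFRB ligand, was at 0.874, 0.518 and 0.241 CPM on average in Gcontrol, G1C7 and G2C9 and did not pass.

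Egfr was low in all groups and spread widely in G1C7. EGFR is the receptor of EGF and TGF-alpha (ENSMUSG00000020122.16, chr11:16752203-16918158, + strand). Its levels were 15.97, 15.89 and 19.07 CPM in Gcontrol, 6.19, 21.2 and 6.83 CPM in G1C7, and 13.25, 13.06 and 16.13 CPM in G2C9. In G1C7 replicate 2 it was 3.25-fold above the mean of its group mates. The fitted changes of log2 -0.58 (adjusted p = 0.391) and -0.26 (adjusted p = 0.747) did not pass. Without G1C7 replicate 2, the change in G1C7 was -1.38 (adjusted p = 0.000433) and the difference from G2C9 was -1.12 (adjusted p = 0.0031).

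Met, the receptor of hepatocyte growth factor (ENSMUSG00000009376.15, chr6:17463800-17573980, + strand), was higher in 5 of 6 derivative libraries but missed the threshold. It was read at 98.5, 96.7 and 95.6 CPM in Gcontrol, 162, 128 and 159 CPM in G1C7, and 176, 179 and 96.5 CPM in G2C9. Gcontrol libraries lay close together, and G2C9 replicate 3 fell among them. The fitted changes were log2 0.63 ± 0.22 SE (adjusted p = 0.0824) and 0.64 ± 0.22 SE (adjusted p = 0.0907). Tested genes within 5 Mb of Met had medians of 0.12 and 0.31. Without G2C9 replicate 3 Met passed in both, at 0.63 (adjusted p = 0.00503) and 0.87 (adjusted p = 0.003), and without G1C7 replicate 2 in G1C7 (0.73, adjusted p = 0.0454).

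Axl (ENSMUSG00000002602.16, chr7:25757273-25788705, - strand) showed the same split of libraries. It was at 576, 582 and 614 CPM in Gcontrol, 845, 719.7 and 842 CPM in G1C7, and 840.2, 839 and 592 CPM in G2C9. Again the 3 G1C7 libraries and G2C9 replicates 1 and 2 were above all Gcontrol libraries, and G2C9 replicate 3 was within their range. The fitted changes were log2 0.44 (adjusted p = 0.0668) and 0.36 (adjusted p = 0.142). Without G2C9 replicate 3 Axl passed in both, at 0.44 (adjusted p = 0.0106) and 0.51 (adjusted p = 0.0129), and without G1C7 replicate 2 in G1C7 (0.51, adjusted p = 0.0314). The 177 tested genes within 5 Mb of Axl had medians of 0.15 and 0.11.

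**Figure D2:**
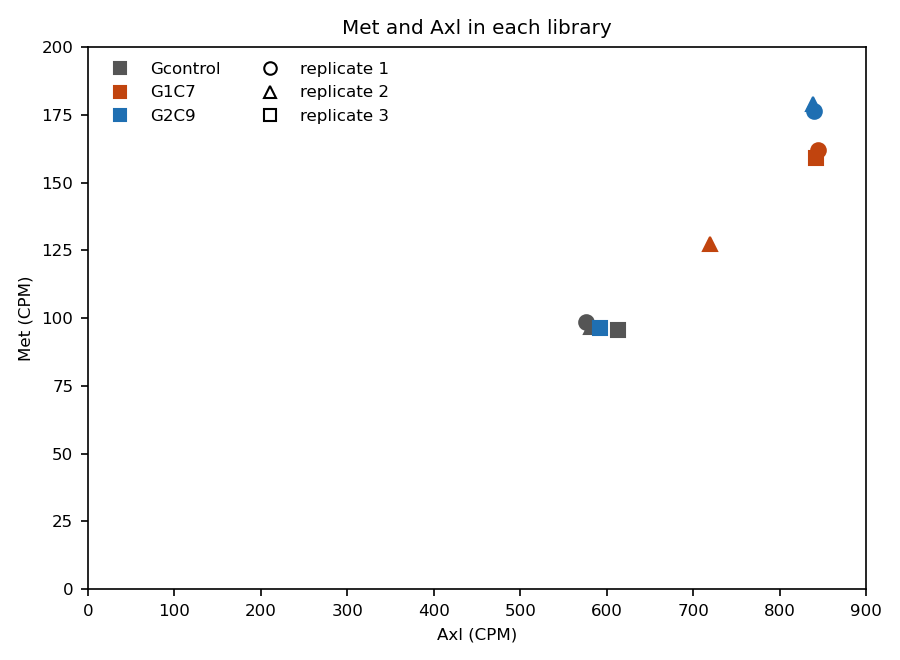
Met against Axl in CPM, 1 point per library (colour gives the group, shape the replicate; both axes are linear and start at 0). The 3 Gcontrol libraries and G2C9 replicate 3 sit at 576 to 614 CPM of Axl and 95.6 to 98.5 CPM of Met, G1C7 replicate 2 lies between, and the other 4 derivative libraries have Axl above 839 CPM and Met above 159.

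Fgfr1, the receptor of many FGFs in glia and mesenchyme (ENSMUSG00000031565.18, chr8:25513654-25575718, + strand), was above Gcontrol in 6 of 6 derivative libraries. Its levels were 334, 326 and 358 CPM in Gcontrol, 480.4, 410 and 485 CPM in G1C7, and 388, 378 and 563 CPM in G2C9. The fitted changes of log2 0.43 (adjusted p = 0.095) and 0.38 (adjusted p = 0.152) did not pass, and tested genes within 5 Mb had medians of 0.22 in both. In G1C7 Fgfr1 passed without G2C9 replicate 3 (0.43, adjusted p = 0.0127) or G1C7 replicate 2 (0.51, adjusted p = 0.0495), and in G2C9 its value without G2C9 replicate 3 was 0.17 (adjusted p = 0.293).

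Acvr1 differed little between the groups (ENSMUSG00000026836.15, chr2:58388644-58567157, - strand). It was at 42.7, 41.6 and 41.0 CPM in Gcontrol, 43.3, 48.0 and 44.3 CPM in G1C7, and 44.5, 43.2 and 49.0 CPM in G2C9. All 6 derivative libraries were above Gcontrol, by little. The 95% intervals of the log2 change ran from -0.08 to 0.30 in G1C7 (adjusted p = 0.394) and from -0.06 to 0.32 in G2C9 (adjusted p = 0.38).

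Over all 10 members, 1 was called in G1C7, where 17.5% of tested genes were called (8.77% higher and 8.73% lower), and 1 in G2C9, where 13.5% were called (6.25% higher and 7.22% lower). Neither share is above the background. Between G1C7 and G2C9 edgeR called 0 of 10, against 3.36% of tested genes (1.71% higher and 1.65% lower), with 1 member at an unadjusted p under 0.05 and 1 called by DESeq2 (Pdgfb). The libraries of these derivatives did not overlap for 1 member, against 18.2% of tested genes. Libraries of the derivative and Gcontrol did not overlap for 5 members in G1C7, against 43% of tested genes, and for 6 in G2C9, against 43.3%. Those shares are near the background too. The median log2 change of the members was 0.33 in G1C7 and 0.37 in G2C9, beside 0.02 and 0.01 over all tested genes. Both comparisons use the same Gcontrol libraries, so their agreement in direction is not independent.

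**Figure D3:**
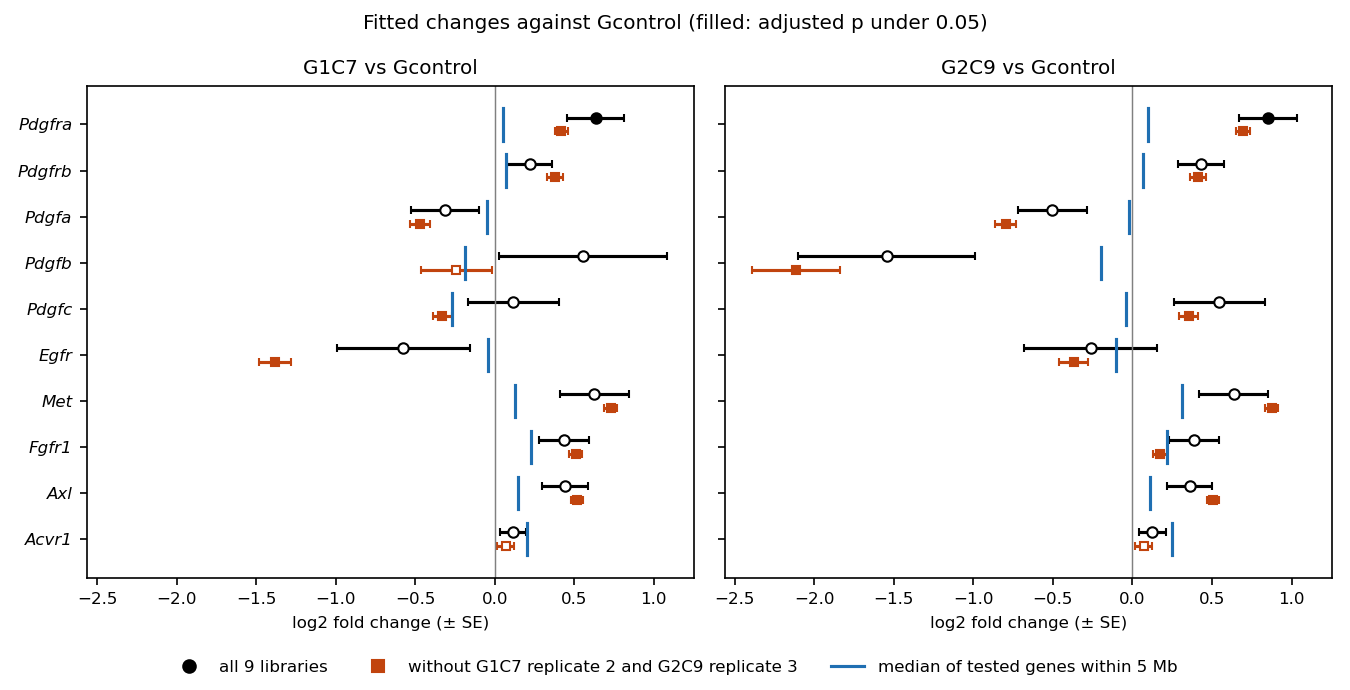
Fitted log2 fold change ± SE of each gene against Gcontrol, from all 9 libraries (black circles) and from 7 libraries without G1C7 replicate 2 and G2C9 replicate 3 (red squares), with the median of tested genes within 5 Mb as a blue bar. Filled symbols have an adjusted p under 0.05: Pdgfra alone with all libraries, and 8 genes in G1C7 and 9 in G2C9 without the 2 libraries. Over all tested genes the shares called in G1C7 and G2C9 were 17.5% and 13.5% with all libraries, and 54.4% and 53.1% without the 2.

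The libraries that stood apart set much of the spread of these genes. G1C7 replicate 2 and G2C9 replicate 3 were both above their group mates for 6 members (Pdgfra, Pdgfa, Pdgfb, Pdgfc, Egfr and Acvr1) and both below them for 2 (Met and Axl). For Pdgfrb and Fgfr1 the 2 libraries went opposite ways. In the same libraries the summed level of the 6 fibroblast markers was 7990 and 8430 CPM, against 2720 to 3660 in their group mates and 5620 to 5900 in Gcontrol. The 7 pericyte and smooth muscle markers summed to 1470 CPM in G1C7 replicate 2, nearly all of it Acta2, and to 872 in G2C9 replicate 3, against 702 to 825 in their mates and 595 to 612 in Gcontrol. The astrocyte markers summed to 9.54 CPM in G1C7 replicate 2, against 4.17 and 3.69 in its mates, and to 3.69 in G2C9 replicate 3, against 2.26 and 1.9. Gcontrol libraries were at 4.94 to 5.12. The neuron markers summed to 27.2 CPM against 13.1 and 13.6, and to 14.5 against 9.21 and 9.59, with 19.4 to 20.4 in Gcontrol. Most of the astrocyte sum was Slc1a3 and most of the neuron sum Tubb3, at up to 9.27 and 23.7 CPM in G1C7. The neural progenitor markers went the other way, at 2290 CPM against 2500 and 2510 in G1C7, and 1960 against 2090 and 2210 in G2C9. In Gcontrol they summed to 1990 to 2030. Most of the progenitor sum was Vim, at 2124 to 2307 CPM in G1C7 and 1844 to 2075 in G2C9, while Nes was at 149 to 158 CPM in G1C7 and 90.1 to 101 in G2C9. The defining pericyte genes Rgs5 and Kcnj8 had 0 to 10 reads summed over the 3 libraries of any group, and Tyrobp, a macrophage gene, had 0 in all 9. The part of these marker genes in the members' values was not tested.

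Without those 2 libraries, 8 members were called in G1C7 (5 higher, 3 lower), where 54.4% of tested genes were called (26.4% higher, 28% lower). In G2C9 it was 9 (6 higher, 3 lower), where 53.1% were called (25.5% higher, 27.6% lower). Pdgfra, Pdgfrb, Met, Fgfr1 and Axl were higher and Pdgfa and Egfr lower in both derivatives. Pdgfc was lower in G1C7 (log2 -0.33, adjusted p = 0.000198) and higher in G2C9 (0.35, adjusted p = 7.47e-05), and Pdgfb was lower in G2C9 (-2.12, adjusted p = 4.39e-06). Between the derivatives 7 members were called, against 27.5% of tested genes (14.8% higher, 12.8% lower). They were Pdgfa, Pdgfb and Fgfr1, higher in G1C7, and Pdgfra, Pdgfc, Egfr and Met, lower in G1C7. Each derivative then rests on 2 libraries that lie close together, and the members' shares are read against those backgrounds.

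**Figure D4:**
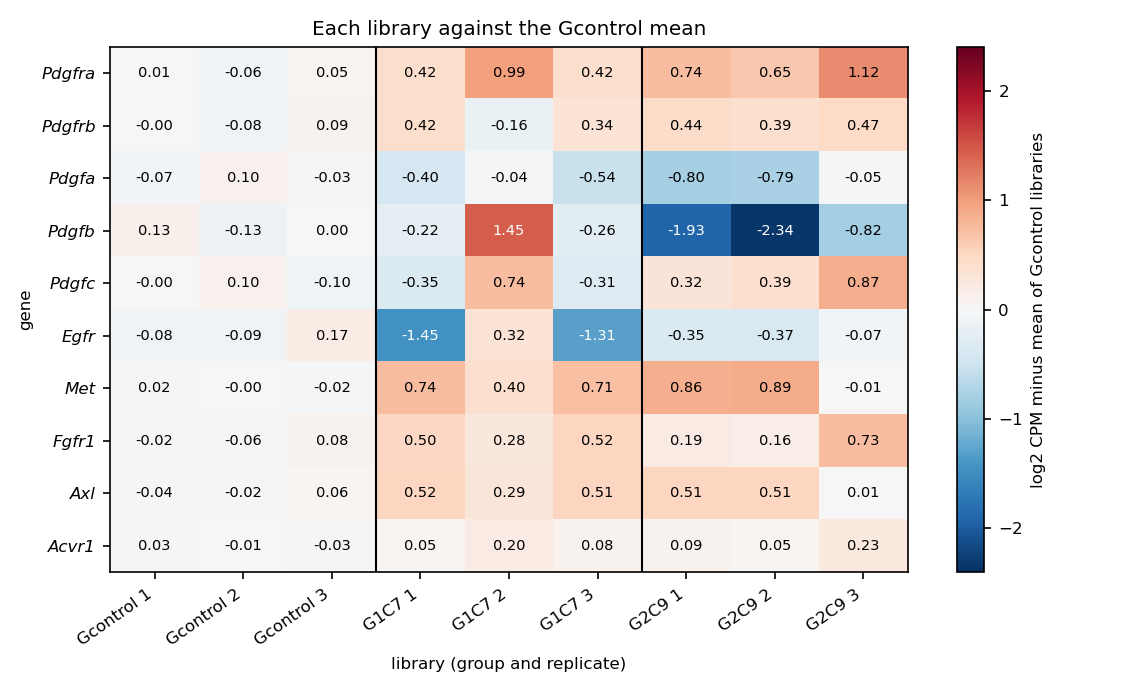
Difference of each library's log2 CPM from the mean of the Gcontrol libraries, for 10 genes (rows) and 9 libraries (columns), on a colour scale centred at 0. Pdgfra, Fgfr1 and Acvr1 are above 0 in all 6 derivative libraries. Met and Axl lie at -0.006 and 0.005 in G2C9 replicate 3 and above 0 in the other derivative libraries. The G1C7 replicate 2 column differs from its neighbours for Pdgfb (1.45), Egfr (0.32) and Pdgfc (0.74).

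The wider receptor pathways were read from 13 lists of 137 genes, of which 105 were tested. In G1C7, 14 were higher and 14 lower, and in G2C9 10 were higher and 11 lower, beside the background shares given above for each direction. The median log2 change of the 105 genes in G1C7 was 0.11, beside 0.02 over all tested genes.

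The ligand of Axl fell to the counting floor. Gas6 had 69, 60 and 55 reads in Gcontrol, 0, 2 and 0 in G1C7 and 0, 0 and 0 in G2C9. It was called lower in both (adjusted p = 0.00314 and 0.0028) and in 9 of 9 fits that left out a library. In G1C7 the ratio of Gcontrol to G1C7 was 91.1, with a 95% counting interval of 15.9 to 3640, and in G2C9 it was at least 28.1-fold lower against a floor of 6 reads (3 read pairs) over the group. Gas6 falls under the naming rule's minimum level and was chosen after its values were seen. Mertk, another TAM receptor, was at 0.955 ± 0.197 CPM in Gcontrol (SD, n = 3) and rose by log2 1.77 (adjusted p = 0.00147) in G1C7 and 1.1967 (adjusted p = 0.00929) in G2C9. The Mertk call in G2C9 was lost without Gcontrol replicate 1 (adjusted p = 0.0554). The other TAM genes of the list, Tyro3 and Pros1, did not pass.

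Of 10 tested ligand genes of the EGFR family, neuregulins included, 2 were higher and 1 lower in each derivative, where 8.77% and 8.73% of tested genes were higher and lower in G1C7 and 6.25% and 7.22% in G2C9. Tgfa, a high-affinity EGFR ligand, was at 8.98, 7.80 and 7.07 CPM in Gcontrol, 3.18, 3.51 and 2.34 in G1C7, and 0.772, 0.796 and 0.703 in G2C9. No libraries overlapped between groups, and it fell by 1.40 and 3.39 on the log2 scale (adjusted p = 0.00241 and 0.000112). Btc, which encodes betacellulin, rose by 1.17 and 1.01 (adjusted p = 0.00318 and 0.00722). Ereg encodes epiregulin, a ligand of EGFR and ERBB4. It was the abundant ligand of the 3 at 275 ± 17.5 CPM in Gcontrol and rose in G2C9 to 530 ± 186 (SD, n = 3; log2 0.95, adjusted p = 0.0186). In G1C7 it was at 224 ± 9.11 CPM (adjusted p = 0.373). Nrg2, a neuregulin gene whose product binds ERBB3 and ERBB4 and not EGFR itself, rose in G1C7 (1.62, adjusted p = 0.0408). Tgfa and Btc were called in 9 of 9 fits that left out a library, Ereg in 6 (highest adjusted p 0.083, without Gcontrol replicate 1) and Nrg2 in 3 (highest 0.139, without Gcontrol replicate 3). Of the other EGFR family receptors only Erbb2 could be tested, at 38.6, 41.6 and 41.6 CPM in the 3 groups, and it did not pass.

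Hgf, the ligand of Met, followed the libraries that stood apart. Gcontrol libraries held it at 23.8, 25.4 and 21.9 CPM, those of G1C7 at 30.3, 62.1 and 28.1, and those of G2C9 at 38.0, 36.2 and 76.5. All 6 derivative libraries were above Gcontrol, and the fitted changes of 0.76 (adjusted p = 0.193) and 1.08 (adjusted p = 0.0891) did not pass. In G1C7 replicate 2 and G2C9 replicate 3, Hgf was above the group mates and Met below them. Met was at 128 and 96.5 CPM there, against 95.6 to 98.5 in Gcontrol, where Hgf was lowest.

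Among FGF receptors, Fgfr2 rose in both derivatives and its libraries were closely grouped. Gcontrol held it at 12.8 ± 0.756 CPM, G1C7 at 20.0 ± 0.991 and G2C9 at 19.4 ± 1.51 (SD, n = 3), a log2 change of 0.65 (adjusted p = 0.00378) and 0.60 (adjusted p = 0.00621). Fgfr2 was called in 9 of 9 fits that left out a library in each comparison. Of 8 tested FGF ligands 1 passed in G2C9, Fgf10 (0.35, adjusted p = 0.0423), and it passed in 2 of 9 fits that left out a library (highest adjusted p 0.164, without Gcontrol replicate 1). Fgf7, the keratinocyte growth factor, was the most abundant at 373 ± 19.2 CPM in Gcontrol and did not pass. Among 8 tested activin and BMP receptor and ligand genes, Inhba, the activin A subunit gene, fell in both (log2 -0.55 and -0.58, adjusted p = 0.0198 and 0.018, beside medians of -0.46 and -0.44 over its tested neighbours within 5 Mb). Acvr2b, an activin type II receptor gene, rose in G1C7 (1.63, adjusted p = 0.014), and Bmpr1b, a BMP type I receptor gene, in G2C9 (0.92, adjusted p = 0.00871). Acvr2b was low, at 0.747 ± 0.107 CPM in Gcontrol and 2.31 ± 1.14 in G1C7 (SD, n = 3), where its libraries ran from 1.65 to 3.62 CPM. Its log2 change was as low as 1.14 in fits that left out a library. Inhba was called in 4 of 9 fits that left out a library in each comparison (highest adjusted p 0.074 and 0.0723, both without Gcontrol replicate 1), Acvr2b in 7 (highest 0.0661, without Gcontrol replicate 3) and Bmpr1b in 9.

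Downstream of the receptors, the docking protein gene Gab1 fell in both derivatives. It went from 174 ± 3.15 CPM in Gcontrol to 61.4 ± 2.51 in G1C7 and 56.6 ± 5.28 in G2C9 (SD, n = 3), a log2 change of -1.50 (adjusted p = 6.54e-05) and -1.62 (adjusted p = 4.26e-05). Of 27 adaptor and proximal signalling genes, 5 were higher and 2 lower in G1C7, where 17.5% of tested genes were called, and 3 were lower and 0 higher in G2C9, where 13.5% were called. Grb2, the adaptor that brings SOS to receptors, fell by 0.32 on the log2 scale in both, beside neighbours within 5 Mb at a median of -0.26 and -0.32. Grb2 was called in 5 and 4 of 9 fits that left out a library (highest adjusted p 0.0696 and 0.0832, both without Gcontrol replicate 1). Sos1 (0.72, adjusted p = 0.00196) and Gab2 (0.92, adjusted p = 0.00185) rose in G1C7 and were called in 9 of 9 fits that left out a library. Their tested neighbours within 5 Mb had medians of 0.43 for Sos1 and 0.23 for Gab2 in G1C7. Plcg2, a phospholipase C gene, fell in G2C9 (-1.19, adjusted p = 0.0277) and was called in 4 of 9 (highest adjusted p 0.1, without G2C9 replicate 2).

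Of 18 tested genes that restrain receptor signalling, 2 were called higher in G1C7, where 8.77% of all tested genes were, and 3 in G2C9, where 6.25% were. None was called lower, and the other members of the list did not pass. Spry1, a feedback inhibitor of FGF and RAS signalling, rose by 1.04 (adjusted p = 0.00709) and 0.67 (adjusted p = 0.0477). Lrig3 rose by 0.63 and 0.53 (adjusted p = 0.00582 and 0.0142), and Lrig1, whose product promotes EGFR turnover, rose in G2C9 by 0.73 (adjusted p = 0.0023). Medians of tested genes within 5 Mb were 0.33 and 0.34 for Lrig3, -0.04 and -0.03 for Spry1, and 0.17 for Lrig1 in G2C9. In G2C9 the calls of Spry1 and Lrig3 held in 2 and 7 of 9 fits that left out a library (highest adjusted p 0.155 without Gcontrol replicate 2 and 0.069 without Gcontrol replicate 1). Of 8 tested genes in the list of ligand cleavage and shedding, 1 was higher and 3 lower in G1C7, where 8.77% and 8.73% of tested genes were. In G2C9 0 were higher and 1 lower, where 6.25% and 7.22% were. Adam12 fell by 2.28 and 2.16 (adjusted p = 0.000163 and 0.00024), from 27.8 ± 3.21 CPM in Gcontrol to 5.73 ± 0.979 and 6.25 ± 0.810 (SD, n = 3). Rhbdf1 rose in G1C7 by 0.35 (adjusted p = 0.0482) and was called in 1 of 9 fits that left out a library. Plau, the urokinase gene, fell in G1C7 by 2.01 (adjusted p = 0.00987). Among 9 tested heparan sulphate co-receptor genes, 2 were lower in G1C7 and 1 in G2C9, and 0 were higher. The syndecan gene Sdc3 fell from 76.2 ± 3.77 CPM to 45.1 ± 2.06 in G1C7 and 13.5 ± 0.223 in G2C9 (adjusted p = 0.000589 and 2.7e-06). Sdc1 fell in G1C7 by 0.51 (adjusted p = 0.0483) and was called in 2 of 9 fits that left out a library.

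**Figure D5:**
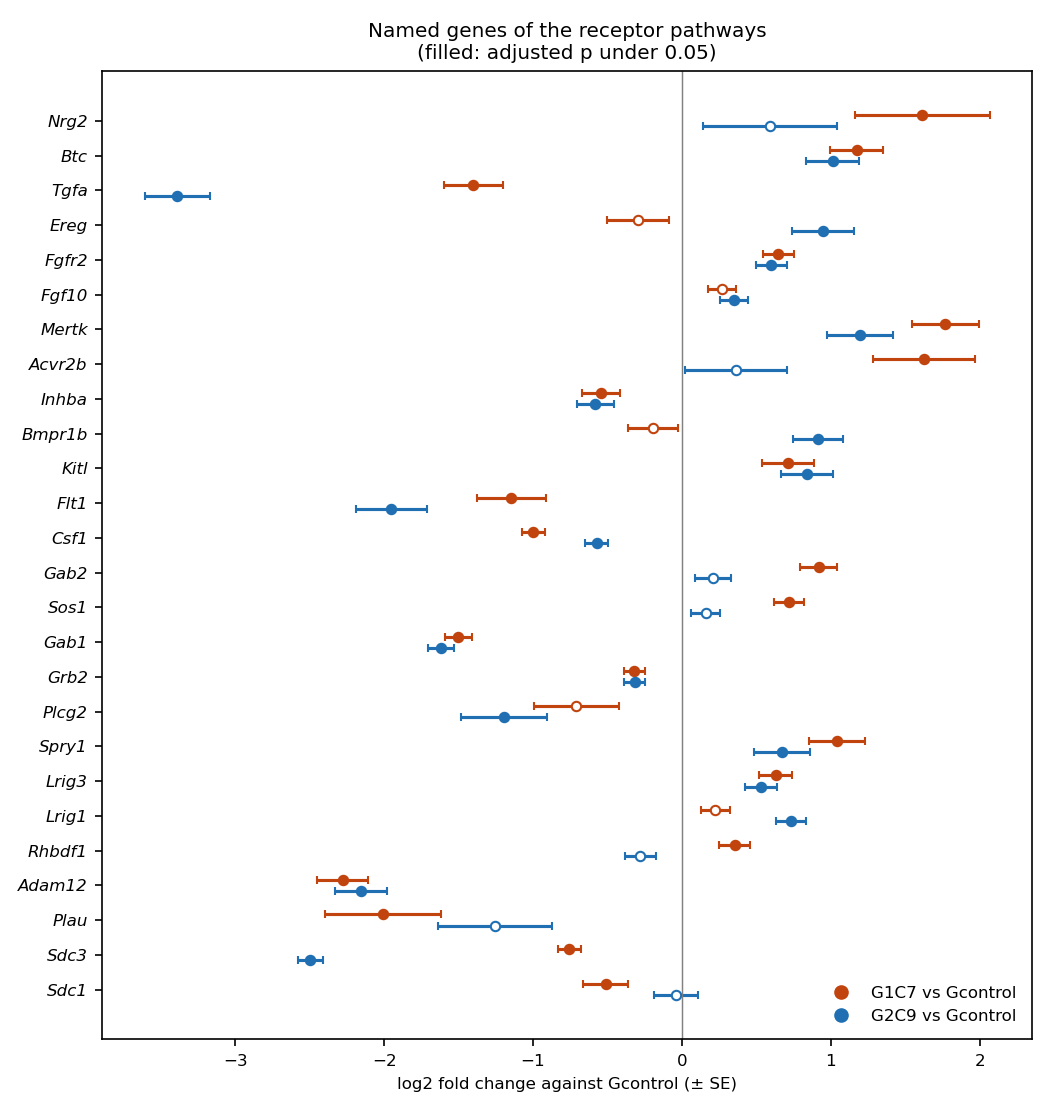
Fitted log2 fold change ± SE against Gcontrol in G1C7 (red) and G2C9 (blue) for the named pathway genes at 1 CPM or more, grouped by list from the EGFR family ligands at the top to the heparan sulphate co-receptors at the bottom. Filled points have an adjusted p under 0.05. Tgfa, Gab1, Adam12 and Sdc3 lie below 0 with filled points in both derivatives, and Fgfr2, Mertk, Btc and Spry1 above 0.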

How the data were processed

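Per the labels' protocols, stranded poly(A) libraries were sequenced as 100 bp read pairs. The deposited values are read counts per gene, made with featureCounts 1.6.0 on STAR 2.6.1c alignments to GENCODE vM25 (GRCm38), per the file headers and the submitters' processing notes. No header sets options for pairs, strand, multi-mapping or overlapping genes, so mates were counted singly (74.8% of counts from 2 to 50 were even) and strand was ignored: reads of antisense or overlapping genes are not told apart. Symbols came from GENCODE vM21, which held 55141 of 55401 IDs.

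A single quasi-likelihood model was fitted to the 9 libraries with edgeR 4.0.16 (R 4.3.3, TMM, filterByExpr, robust). The threshold was an adjusted p under 0.05 (Benjamini-Hochberg over 15659 genes). Standard errors were taken as the size of the log2 change divided by the root of F, and intervals are 95%. RPKM uses the gene lengths in the files. Alternatives were RLE factors, no filter, DESeq2 1.42.0, limma-voom (limma 3.58.1), a replicate block, 2-group fits, each library left out, and both libraries that stood apart left out. The procedure was run on simulated counts, in which all genes had the same dispersion and no library stood apart. That run does not measure error rates in these data.

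The text names all members, up to 2 highest and 2 lowest called genes per list at a mean of 1 CPM or more (the 2 most abundant where none was called), and 3 genes most like each called member. The members and lists were chosen with earlier results of these data known. Sequences are RefSeq promoter windows.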

Additional observations from a re-analysis of the deposited data

Results flagged for a closer look

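In all, 10 of 105 tested genes of the receptor pathways differed between G1C7 and G2C9 when the derivatives were compared directly (edgeR, adjusted p under 0.05), against 3.36% of tested genes, and no member gene did. These lists were chosen with earlier results of these data known. Higher in G1C7 were Tgfa (log2 1.99, adjusted p = 0.00202), Sdc3 (1.74, adjusted p = 2.74e-05), Gab2 (0.71, adjusted p = 0.0177), Rhbdf1, an iRhom gene that guides maturation of the ADAM17 sheddase (0.63, adjusted p = 0.0148), and Sos1 (0.56, adjusted p = 0.0187). Lower in G1C7 were Ereg (-1.24, adjusted p = 0.0163), Bmpr1b (-1.11, adjusted p = 0.0104), Lrig1 (-0.51, adjusted p = 0.0278), Csf1 (-0.42, adjusted p = 0.0198) and Adam17, which encodes the sheddase itself (-0.38, adjusted p = 0.0272). Adam17 is outside the naming rule and is given here because the direct test called it. Tested genes within 5 Mb had medians of 0.36 for Sos1, -0.46 for Bmpr1b and -0.48 for Csf1 in this comparison. For Tgfa, Sdc3, Gab2, Rhbdf1, Ereg and Lrig1 the medians lay between -0.16 and 0.12. Tgfa and Sdc3 were called in 9 of 9 fits that left out a library, Ereg, Bmpr1b and Rhbdf1 in 7 of 9, Gab2 and Sos1 in 4 of 9, and Csf1, Lrig1 and Adam17 in 2 of 9. The highest adjusted p in those fits was 0.115, for Adam17 without G1C7 replicate 1.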

How the results depend on the processing

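RLE factors, no filter and limma-voom each called 1, 1 and 0 members in G1C7, G2C9 and between the derivatives, as reported. DESeq2 called 1, 2 and 1, the added calls being Pdgfb in G2C9 and between the derivatives. Fits on the 2 groups compared called 3, 4 and 0. Leaving out 1 library at a time gave 0 to 6 members in G1C7, 0 to 4 in G2C9 and 0 to 2 between them: 6, 4 and 2 without G1C7 replicate 2, 4, 4 and 0 without G2C9 replicate 3, and 0, 0 and 0 without any 1 Gcontrol library. Calls over all 15659 tested genes moved too, from 2740, 2109 and 526 with 9 libraries. They were 4127, 4098 and 1289 without G1C7 replicate 2, and 3359, 2346 and 589 without G2C9 replicate 3. Without a Gcontrol library they were 1235 to 1336, 903 to 1068 and 262 to 288. Leaving out both libraries that stood apart gave 8, 9 and 7 members, where 54.4%, 53.1% and 27.5% of tested genes were called. A derivative left with 2 libraries is assumed to vary like the other groups. The cause of these shifts was not tested.

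Same-numbered libraries did not deviate together: correlations of their deviations were -0.023 to 0.047 between Gcontrol and the derivatives and 0.409, -0.511 and -0.557 between G1C7 and G2C9. With the replicate block 0, 0 and 0 members were called (for Pdgfra the adjusted p was 0.101 for G1C7 and 0.0542 for G2C9), and calls over all genes went from 2740, 2109 and 526 to 1532, 1114 and 164. Over all genes, no filter called 2086, 1587 and 403, DESeq2 3521, 2872 and 1106, and 2-group fits 2415, 3183 and 66.

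Of 1694 alternative values for 106 gene results, 1436 kept their side of the threshold, 160 lost and 76 gained a call, and 22 changed sign. In G1C7 against Gcontrol the sign changed for Pdgfb (-0.24 without both libraries, -0.24 to 0.84 leaving out 1 library), Pdgfc (-0.33 without both, -0.33 to 0.30) and Pdgfrl (-0.99 without both, -0.0816 by limma-voom, -0.99 to 0.92). In G2C9 it changed for Pdgfrl (-1.22 without both, -1.22 to 1.61) and Sdc1 (-0.21 to 0.0441). Between G1C7 and G2C9 it changed for Met (0.0361 by limma-voom, 0.0187 with the block, -0.25 to 0.13), Fgfr1 (-0.0521 to 0.26), Axl (-0.0662 to 0.16) and Acvr1 (-0.0576 to 0.044).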

Other observations

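Of 6 tested genes in a list of relatives of the PDGF receptors and their ligands, 1 was higher and 4 lower in G1C7, where 8.77% of tested genes were called higher and 8.73% lower. In G2C9 1 was higher and 3 lower, where 6.25% were called higher and 7.22% lower. Kitl, the ligand of KIT, rose from 61.5 ± 5.64 CPM in Gcontrol to 101 ± 7.65 in G1C7 and 110 ± 27.0 in G2C9 (SD, n = 3, adjusted p = 0.0248 and 0.0148, edgeR), while Kit itself had 0 reads in every library. Flt1, a VEGF receptor gene, fell by 1.14 and 1.95 on the log2 scale (adjusted p = 0.0111 and 0.00143), from 8.26 ± 0.742 CPM to 3.73 ± 1.02 and 2.13 ± 0.287 (SD, n = 3). Flt4 had 28, 34 and 38 reads in Gcontrol and 0 in all 6 derivative libraries. Csf1, the ligand of the macrophage receptor CSF1R, was the most abundant of the list and fell in both derivatives (log2 -0.997 and -0.573, adjusted p = 0.000163 and 0.002). Tested genes within 5 Mb of Csf1 had medians of -0.55 and -0.08, those near Kitl 0.29 and 0.44, and those near Flt1 -0.03 and 0.04. In fits that left out a library, Kitl was called in 4 and 5 of 9 (highest adjusted p 0.102 and 0.0748, both without Gcontrol replicate 1), Flt1 in 8 and 9 (highest 0.0537, without Gcontrol replicate 1) and Csf1 in 9 of 9. Flt4 is outside the naming rule and was chosen after its values were seen.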
